A study of Arabidopsis thaliana with 12 samples.

Results

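The 47 genes described here are those of the brightest single-gene probes in wild type (WT) plants of Arabidopsis thaliana on an expression array of 3439 probes. Members were chosen by their mean linear intensity over the 6 WT samples: a probe was taken when it lay among the brightest 10% of all 3439 by that mean and the platform annotation listed exactly 1 gene for it. Of these brightest probes 53 had 1 gene listed, 74 had several and 217 had none listed, and 6 of the 53 belonged to genes that the choice left out, which gave 47 members out of 692 single-gene probes on the array. The 22 genes named for leaving out include genes of the photosystems, the Calvin cycle and chlorophyll synthesis. How common such genes are among the brightest probes can therefore not be read from the members. Each member has 1 such probe, and all 47 matched a locus in the gene table used for names. The WT means that chose the members are given as a description, and the same 6 WT samples also enter every psae1 minus WT difference and its p-value below. Brightness ranks probes and not transcripts: the signal of a probe also depends on its sequence and length, which were not analysed here, so the order below is that of intensity and is not shown to be the order of transcript abundance.

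Total RNA came from 6 samples of the psae1 mutant, which per the labels lacks the photosystem I protein PSI-E1, and from 6 WT samples, numbered 1 to 6 in each genotype and all of ecotype Columbia 0. The sources used here do not give tissue, age, light, the number of plants per sample, the kind of mutation or the number of lines. PSI-E1 sits on the stromal side of photosystem I, the complex that passes light-driven electrons to ferredoxin, and helps ferredoxin dock there. Cyclic flow around photosystem I, the export of reducing power and the synthesis of chlorophyll are among the processes known to be linked to this step in leaves, and members with roles in each are described below. Of 6 leaf, 6 seed, 4 root and 3 pollen marker genes none had a single-gene probe, so the tissue could not be checked with these. A probe with several genes listed 1 of the leaf markers and no such probe listed a seed, root or pollen marker. The annotation lists no probe for PSAE-1, the gene of the missing protein, so its level could not be used to check the mutant samples. In such bulk RNA, fewer cells of a type and less RNA per cell cannot be told apart.

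Between columns, intensities sum to 3436 to 3564 in psae1 and 3611 to 3678 in WT, and the median probe stood 0.25 log2 units lower in psae1. A gene's deposited intensity and its height relative to the median probe, after each column is centred on its median, can therefore differ in direction. Differences below are psae1 minus WT of centred log2 intensity unless another scale is named, tested with limma across 3279 probes with Benjamini-Hochberg adjustment, and "called" means an adjusted p under 0.05. In both genotypes the samples numbered 1 and 2, 3 and 4, and 5 and 6 deviated together. A test on the 3 averages of these pairs is therefore given beside the test on 12 samples. The SEs below come from the test on 12 samples, which takes all samples as independent. Nothing in the labels says that samples came from separate plants, so p-values reflect spread among these samples alone, and that spread may be technical.

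The members covered a wide range of brightness. The lowest and the highest single values of any member were 0.941 and 54.5, no member was at 0 in any sample, and none reached the value of 100 at which 9 readings of 3 other probes in psae1 lay. Only 4 members had a WT mean of 10 or more, while 21 had a WT mean under 2, and the median member had a WT mean of 2.07, against 2.46 for the 297 other probes among the brightest 10%. At the lower edge, AT5G58330, AT3G19810 and ATSPS4F lay just inside with WT means of 1.55, 1.502 and 1.498. AT1G55440, AT3G18870 and AT2G36480 were the next single-gene probes outside, with WT means of 1.46, 1.44 and 1.44. The limit itself fell between WT means of 1.470 and 1.468, a gap smaller than the SDs within WT of these 2 probes, which were 0.119 and 0.260.

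**Figure D1:**
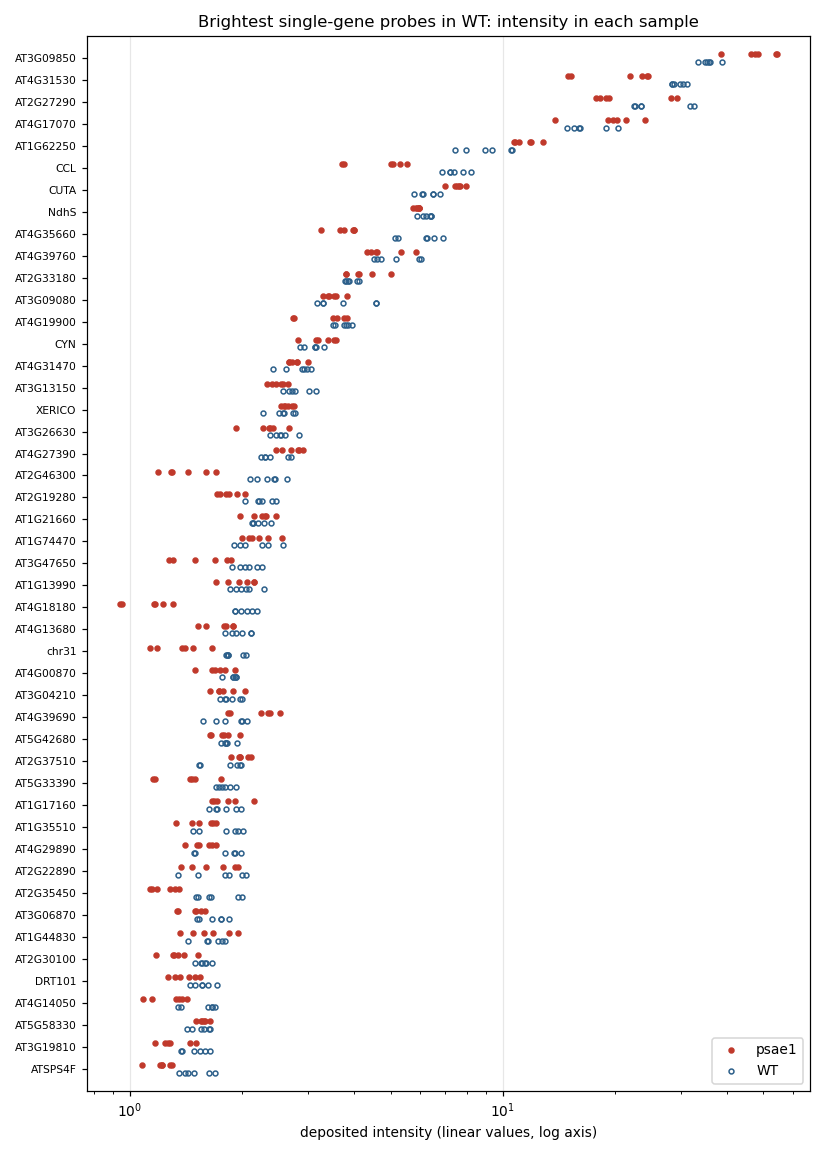
Deposited intensity (linear values on a log axis) of the 47 members, ordered by WT mean, with 6 psae1 samples (filled points) above 6 WT samples (open points) in each row. For 10 members, AT4G18180, AT2G46300, AT4G35660 and CCL among them, all psae1 points lie left of all WT points. AT1G62250 and CUTA are the members whose psae1 points all lie to the right. Of all tested probes 26.7% lie wholly lower and 1.16% wholly higher as deposited.

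In the psae1 samples, which the choice did not use, 41 of the 47 members were again among the brightest 10% of probes, and so were 268 of the 297 other probes. The 6 members that were not were AT4G18180, ATSPS4F, AT2G35450, AT4G14050, AT3G19810 and AT2G30100, at psae1 ranks of 442, 407, 395, 375, 364 and 357. All members together held 6.30% ± 0.256 of the summed intensity in psae1 and 6.27% ± 0.168 in WT (SD, n = 6 each), with overlapping samples of 5.93% to 6.57% in psae1 and 6.02% to 6.41% in WT. The other 297 probes held 50.4% ± 0.414 in psae1 and 44.9% ± 0.990 in WT (SD, n = 6 each), and there every psae1 sample lay above every WT sample. Without AT3G09850, the brightest member, they held 4.93% ± 0.307 in psae1 and 5.29% ± 0.130 in WT, again with overlap. These shares need no centring, but the WT shares rest on the values that chose the probes.

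**Figure D2:**
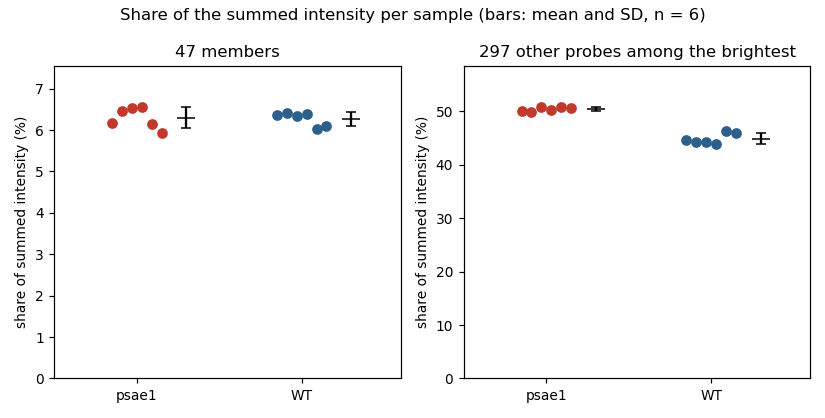
Percent of each sample's summed intensity held by the 47 members (left panel) and by the 297 other probes among the brightest 10% (right panel), with 6 points per genotype and the mean and SD beside them. The members' shares overlap between psae1 and WT, around 6.30% and 6.27%, while the other bright probes lie near 50.4% in psae1 and 44.9% in WT.

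Among the members, AT4G18180, AT2G46300, AT4G35660 and the clock-linked gene CCL were called lower in psae1 under every one of 5 scalings of the columns. They were at −0.61 to −0.43 on the centred log2 scale, where none of these 4 calls was lost when any 1 sample was left out. Of these 4, only AT4G18180 was also called in centred averages without a block. AT2G46300 passed as well once the sample number was added as a block. CUTA and AT3G09850 were the members called higher in centred averages without a block. With that block AT1G62250, AT4G17070 and AT4G39690 were called higher too, and the rest of the other 15 higher calls rested on the 12 samples. NdhS changed direction with the scaling. It was the one member that keyword classes, which could match only the 10 members with a name, placed under photosynthesis and pigments.

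Of the 47 members 17 were called higher and 4 lower in psae1 on the centred scale, or 36.2% and 8.51%, where 11.9% of all 3279 tested probes were called higher and 10.9% lower. Among the 297 other bright probes 42.8% were called higher and 9.43% lower. The median difference was 0.11 over the members, 0.21 over the other bright probes and 0.0058 over all probes tested. In 12 members all centred psae1 values lay above all WT values and in 5 they lay below, against 6.71% and 5.06% of all tested probes. With numbers averaged in pairs 2 members were called higher and 1 lower, where 1.16% of all probes were called in each direction, and with a replicate block added to these averages 5 were higher and 2 lower, where 3.57% and 2.71% of all probes were. The replicate block on 12 samples gave 19 higher and 5 lower, where 14.8% and 13.6% of all probes were, and a random block for the paired numbers gave 6 and 1, where 4.12% and 1.65% were. Since the WT values both chose the members and enter each difference, the counts are a description.

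The direction of the calls turned on how columns were scaled. Median centring gave the highest difference of 5 scalings for every one of the 47 members. As deposited, 3 members were called higher and 15 lower, where 3.39% and 49.8% of all probes were. With columns scaled to their mean intensity, a setting chosen after seeing the data, 5 were higher and 12 lower, where 4.27% and 42.4% of all probes were. After cyclic loess normalization, which evens out trends with brightness, 2 were higher and 11 lower, where 8.48% and 9.76% of all probes were. After quantile normalization limma called 0 higher and 9 lower, where 7.41% and 10.6% of all probes were. At an unadjusted p under 0.05 limma gave 4 higher and 14 lower, where 14.2% and 19.3% of all probes were. Under these 4 scalings, in the order given, 31.9%, 25.5%, 23.4% and 19.1% of the members were called lower. Among the 297 other bright probes 27.9%, 23.6%, 20.5% and 20.5% were. Called higher were 6.38%, 10.6%, 4.26% and 0% of the members, against 18.5%, 24.9%, 11.1% and 10.8% of the other bright probes. In averages, 0 members were called higher and 4 lower both after quantile normalization, where 0.427% and 1.31% of all probes were, and after cyclic loess normalization, where 0.396% and 1.04% were, and at an unadjusted p under 0.05 limma gave 0 and 1 higher, where 6.31% and 7.35% of all probes were. Averages called 1 higher and 6 lower as deposited, where 0.518% and 20.3% of all probes were, and 1 higher and 4 lower with mean scaling, where 0.518% and 11.7% were. None of the 17 higher calls was made under all 5 scalings, and 4 of these genes changed sign under at least 1. All 4 lower calls were made under all 5 scalings. The plot of differences shows this lean to the left of each point.

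**Figure D3:**
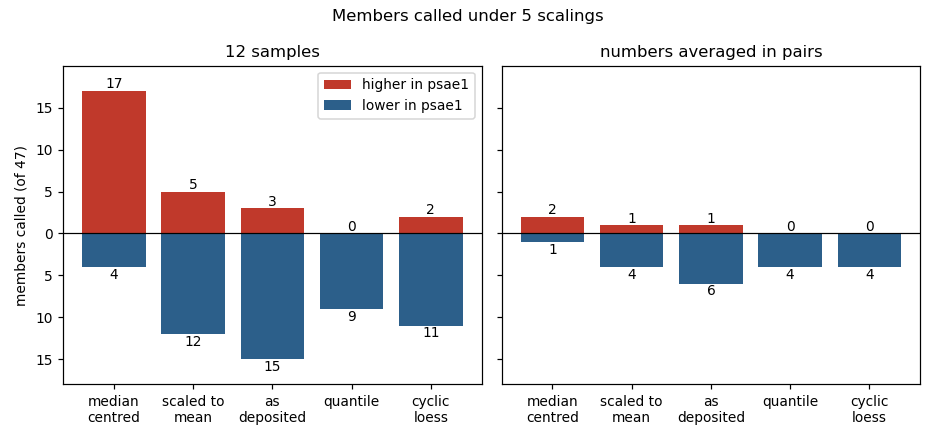
Number of the 47 members called higher (upward bars) or lower (downward bars) in psae1 under 5 scalings, for 12 samples (left panel) and for averages of numbers 1 and 2, 3 and 4, and 5 and 6 (right panel). Higher calls go from 17 with median centring to 0 with quantile normalization, and lower calls range from 4 to 15 with 12 samples.

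**Figure D4:**
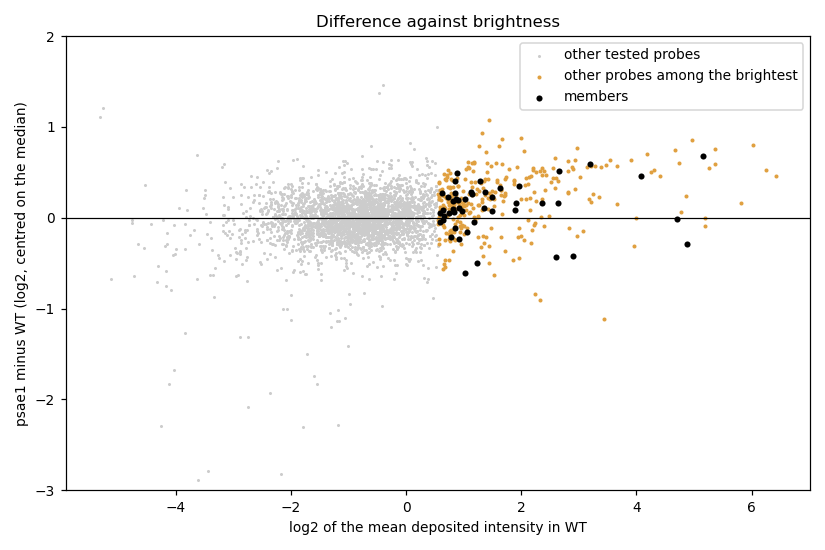
Difference psae1 minus WT in centred log2 intensity (vertical axis) against the log2 of the mean deposited WT intensity (horizontal axis) for 3279 tested probes, with the 47 members in black and the 297 other probes among the brightest in orange. The median lies at 0.11 for the members and 0.21 for the other bright probes, and 4 members called lower lie well below 0.

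The gene table gives 10 of the 47 members a name beyond the locus, and 37 have none. Among the 10, 4 encode proteins that act in the chloroplast. NdhS, also CRR31, is a subunit of the chloroplast NADH dehydrogenase-like complex, which takes electrons from ferredoxin into the plastoquinone pool in cyclic flow around photosystem I. Its lowest, median and highest deposited intensities were 5.73, 5.92 and 5.97 in psae1, against 5.89, 6.31 and 6.40 in WT. The deposited ranges overlap, with psae1 toward the lower end of WT, yet relative to the median probe all 6 psae1 values were above all WT values. The centred difference was 0.16 ± 0.05 (SE, n = 6, limma adjusted p = 0.042), against −0.08 as deposited, −0.04 with mean scaling, −0.15 after quantile and −0.16 after cyclic loess normalization, where it was called lower (adjusted p = 0.048). NdhS therefore had no direction that held across scalings, and its higher call was also lost in 10 of the 12 omissions of a single sample and in averages (limma adjusted p = 0.44).

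AT1G74470 encodes geranylgeranyl reductase, which makes the phytyl tail of chlorophyll and of tocopherols. It read 1.99, 2.17 and 2.56 in psae1, against 1.90, 2.14 and 2.58 in WT. The groups overlap almost fully as deposited, and the centred difference of 0.28 ± 0.09 (limma adjusted p = 0.035) stood against 0.03 as deposited. Its call was lost in 8 of the 12 omissions of 1 sample and in averages (limma adjusted p = 0.29). AT5G58330 encodes NADP-dependent malate dehydrogenase (NADP-MDH), the light-activated enzyme of the malate valve that exports reducing power from the chloroplast. It read 1.51, 1.57 and 1.63 in psae1, against 1.42, 1.57 and 1.64 in WT, with the psae1 values inside the WT range. Relative to the median probe it was called higher by 0.27 ± 0.05 (limma adjusted p = 0.0036), but it was at 0.02 as deposited and was not called there, under the other scalings or in averages (limma adjusted p = 0.21).

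CUTA encodes a chloroplast protein related to the bacterial copper tolerance protein CutA. It read 6.999, 7.58 and 7.96 in psae1, against 5.79, 6.30 and 6.77 in WT, so every psae1 sample lay above every WT sample even without centring. The same holds as deposited for 2 members in all, against 1.16% of all tested probes. CUTA was called higher by 0.51 ± 0.06 (limma adjusted p = 7.9e-05), higher in 6 of 6 same-numbered comparisons, and with averaged numbers (limma adjusted p = 0.043). It stayed called at 0.31 with mean scaling, at 0.18 with cyclic loess and at 0.26 as deposited, while the call was lost at 0.17 after quantile normalization (limma adjusted p = 0.064). In averages it was called with median centring alone of the 5 scalings.

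Carbon and nitrogen metabolism gave 2 named members. ATSPS4F is a sucrose phosphate synthase, an enzyme of sucrose synthesis. It read 1.08, 1.22 and 1.298 in psae1, against 1.36, 1.46 and 1.69 in WT, and all deposited psae1 values were below all WT values. That holds for 10 members, against 26.7% of all tested probes. Relative to the median probe ATSPS4F was at −0.05 ± 0.07 without a call (limma adjusted p = 0.64). CYN encodes cyanase, which breaks down cyanate. It read 2.81, 3.29 and 3.56 in psae1, against 2.86, 3.14 and 3.32 in WT, with overlapping ranges as deposited. It was called higher by 0.33 ± 0.06 on the centred scale (limma adjusted p = 0.0029), was not called under the other 4 scalings, where it lay from 0.04 to 0.13, and was not called in averages (limma adjusted p = 0.15).

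The other 4 named members are CCL, XERICO, chr31 and DRT101. CCL, for CCR-like, is known for a transcript whose stability changes over the day under the circadian clock. It read 3.70, 5.04 and 5.52 in psae1, against 6.87, 7.30 and 8.22 in WT, and no psae1 sample reached the lowest WT sample on the deposited or on the centred scale. CCL was called lower by all 5 scalings, from −0.43 ± 0.09 with median centring (SE, n = 6, limma adjusted p = 0.0061) to −0.75 after cyclic loess normalization. The 3 pairs of numbers gave −0.35, −0.29 and −0.64, so the fall was deepest in numbers 5 and 6. In averages it was not called with median centring (limma adjusted p = 0.14), nor with the replicate block added (0.069), but it was called under the other 4 scalings.

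XERICO, a RING-H2 protein that raises abscisic acid levels and drought tolerance, read 2.55, 2.63 and 2.75 in psae1, against 2.27, 2.58 and 2.77 in WT. The psae1 range lies within that of WT as deposited. It was called higher by 0.29 ± 0.07 on the centred scale alone (limma adjusted p = 0.0070), at 0.04 as deposited, and was not called in averages (limma adjusted p = 0.21). The gene named chr31, for chromatin remodeling 31, read 1.13, 1.39 and 1.66 in psae1, against 1.81, 1.83 and 2.05 in WT, and its psae1 samples were all below WT as deposited. On the centred scale it was at −0.23 ± 0.08 and missed the threshold (limma adjusted p = 0.053), while the other 4 scalings called it lower, at −0.37 to −0.48. With the replicate block it was called on the centred scale too (limma adjusted p = 0.027). In averages it was called as deposited alone (limma adjusted p = 0.038, against 0.36 with centring). DRT101, named for DNA damage repair and toleration, read 1.27, 1.40 and 1.54 in psae1, against 1.44, 1.56 and 1.71 in WT. As deposited psae1 lay toward the lower side of an overlapping range. On the centred scale DRT101 was at 0.09 ± 0.06 (limma adjusted p = 0.32) and higher in 6 of 6 same-numbered comparisons. It had no call under any of the 5 scalings.

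**Figure D5:**
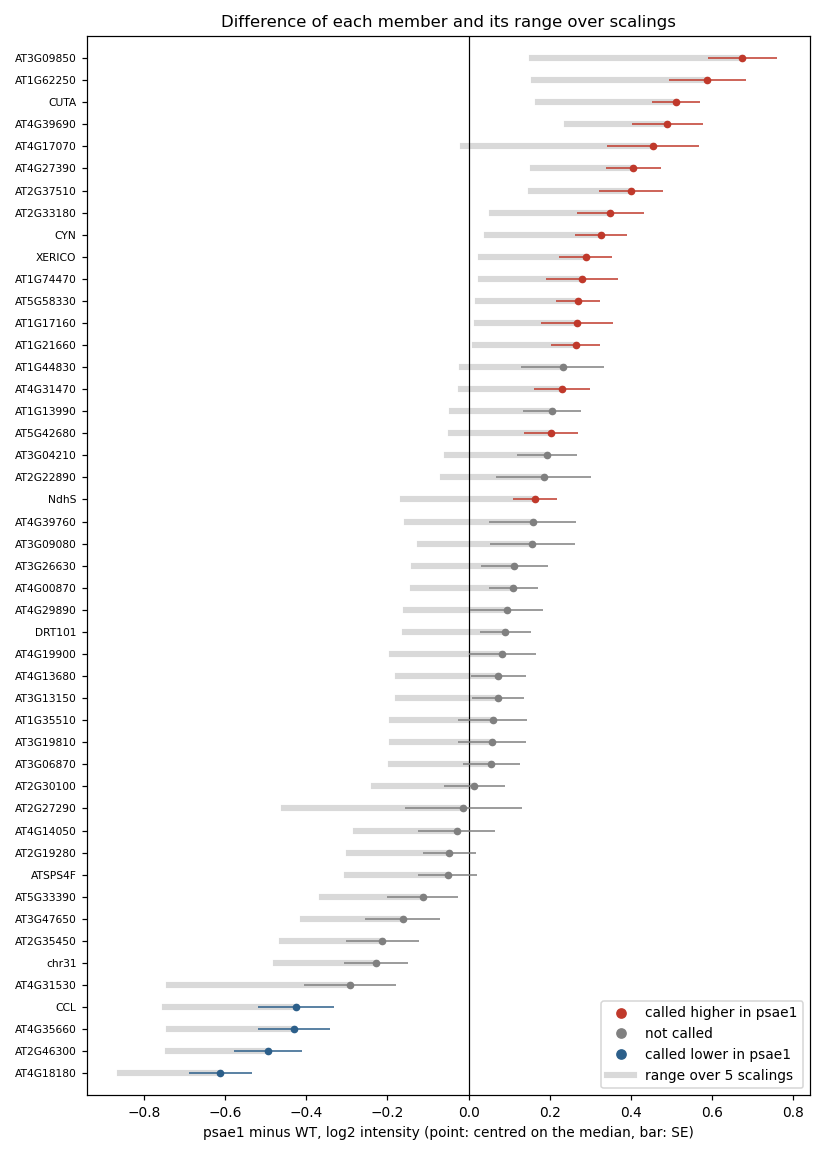
Difference psae1 minus WT in log2 intensity for each of the 47 members, ordered by size, with points and bars for the median-centred value and its SE and grey bands for the range over 5 scalings. All bands extend to the left of their points. The 4 genes called lower stay below 0 over the whole band, as do the 9 genes not called whose centred difference is below 0.

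Beyond CCL, the other 3 members called lower are loci without a name in the gene table. AT4G18180 had the deepest fall of all members. Its deposited intensity was 0.941, 1.16 and 1.302 in psae1, against 1.91, 2.02 and 2.19 in WT, so the highest psae1 sample was below the lowest WT sample, and the mean in psae1 was 0.555 of that in WT. It was at −0.61 ± 0.08 with median centring (SE, n = 6, limma adjusted p = 0.00015) and −0.86 as deposited. It was the one member called under all 5 scalings both with 12 samples and with averages (limma adjusted p in averages from 0.0072 to 0.042). The pairs of numbers gave −0.67, −0.40 and −0.76. Its rank in brightness went with it, 442 in psae1 and 208 in WT.

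AT2G46300 read 1.19, 1.36 and 1.70 in psae1, against 2.104, 2.38 and 2.63 in WT, again with no overlap. It was lower by a like amount in all pairs of numbers, at −0.51, −0.45 and −0.52, and at −0.49 ± 0.08 overall (limma adjusted p = 0.0011). In averages it missed the threshold with median centring (limma adjusted p = 0.065), passed with the replicate block added (0.032) and passed under the other 4 scalings. AT4G35660 read 3.26, 3.86 and 3.99 in psae1, against 5.15, 6.25 and 6.91 in WT. It was at −0.43 ± 0.09 (limma adjusted p = 0.0040), but the pairs of numbers differed, at −0.71, −0.48 and −0.10, so numbers 5 and 6 showed least of it. Without numbers 1 and 2 it was not called (adjusted p = 0.076). In averages it was called under the 4 scalings other than median centring (adjusted p = 0.12 with it).

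AT4G31530, second in brightness among the members, differed between the pairs of numbers. It read 14.9, 22.8 and 24.5 in psae1, against 28.4, 29.4 and 31.1 in WT, and no psae1 value reached a WT value on either scale, yet at −0.29 ± 0.11 it missed the threshold (limma adjusted p = 0.080). The pairs of numbers gave −0.11, −0.13 and −0.64, and its spread among psae1 samples, an SD of 0.30 in centred log2, was far wider than the 0.04 among WT samples. The other 4 scalings called it lower, down to −0.74 after cyclic loess normalization, and no scaling did so in averages. A probe that lists this gene with 2 others was at 0.21 without a call (limma adjusted p = 0.095).

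Among the loci higher on the centred scale, AT3G09850 was the brightest member. It read 38.6, 47.9 and 54.5 in psae1, against 33.4, 35.4 and 38.6 in WT, where 1 psae1 sample fell within the WT range. The centred difference was 0.68 ± 0.09 (limma adjusted p = 0.00016), and by pairs of numbers 0.51, 0.65 and 0.86. It was called in averages (limma adjusted p = 0.020), as deposited and with mean scaling, but with 0.16 under quantile and 0.18 under cyclic loess normalization it was not. AT1G62250 read 10.7, 11.4 and 12.8 in psae1, against 7.43, 9.16 and 10.6 in WT, and it was the other member besides CUTA with no overlap upward as deposited. It was called higher by 0.59 ± 0.09 (limma adjusted p = 0.00076), while its pairs of numbers gave 0.64, 0.82 and 0.30. The call of AT1G62250 held at 0.34 as deposited and at 0.39 with mean scaling. Cyclic loess left this gene at 0.22 (limma adjusted p = 0.067) and quantile normalization at 0.16 (0.20), both without a call. Its averages missed the threshold with median centring (limma adjusted p = 0.061) and passed once the replicate block was added (0.031). AT4G39690 read 1.83, 2.30 and 2.53 in psae1, against 1.57, 1.90 and 2.05 in WT, and was at 0.49 ± 0.09 (limma adjusted p = 0.0015). It lay above 0 under all 5 scalings, from 0.24, and was called after cyclic loess normalization too, at 0.31 (adjusted p = 0.031). In averages it missed the threshold (adjusted p = 0.084), and it passed with the replicate block added (0.034).

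AT4G17070 read 13.8, 19.998 and 24.1 in psae1, against 14.9, 16.1 and 20.4 in WT, which overlap widely, and at 0.45 ± 0.11 (limma adjusted p = 0.012) it was called, against −0.01 after quantile normalization. AT4G27390, AT2G37510 and AT2G33180 were called higher by 0.41, 0.40 and 0.35 on the centred scale. All 3 stayed above 0 under each scaling. Only AT4G27390 was called under a scaling other than median centring, that to the mean intensity (limma adjusted p = 0.020). None of the 3 was called in averages. AT1G17160, AT1G21660, AT4G31470 and AT5G42680 completed the 17 called higher, at 0.27, 0.26, 0.23 and 0.20. As deposited these 4 lay between −0.04 and 0.02, with AT4G31470 and AT5G42680 below 0, and none was called there. AT1G21660 stayed called in all 12 omissions of 1 sample, while AT5G42680 lost its call in 9 of them, AT1G17160 in 7, and AT4G31470 in 3, those of psae1 2, WT 3 and WT 4.

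The remaining members without a call spanned the whole range of brightness, with WT means from 1.498 to 29.5, and 17 of the 26 were above 0 and 9 below on the centred scale. AT2G27290, next after AT4G31530 in WT brightness, read 17.8, 19.1 and 29.4 in psae1, against 22.4, 23.5 and 32.5 in WT, with overlapping groups and a difference of −0.01 ± 0.14 whose sign changed in 6 of the 12 omissions of 1 sample. Its spread was the widest of the members in psae1, with an SD of 0.32 in centred log2, and after cyclic loess normalization it was called lower at −0.46 (adjusted p = 0.049). AT4G39760 read 4.34, 4.58 and 5.84 in psae1, against 4.51, 4.94 and 6.01 in WT, also with overlap. AT3G47650, AT2G35450 and AT2G19280 were not called on the centred scale, at −0.16, −0.21 and −0.05, but all their deposited psae1 values were below all WT values, and the other 4 scalings called all 3 lower. With CCL, AT4G18180, AT2G46300, AT4G35660, AT4G31530 and chr31 they make up the 9 members called lower after quantile normalization.

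The spread between samples of a genotype was measured as the SD of centred log2 intensity, whose median was 0.14 in psae1 and 0.11 in WT over the members, 0.15 and 0.12 over the other bright probes, and 0.17 and 0.13 over 3257 probes measured in all samples. In both genotypes paired numbers lay closer together, with a median difference of 0.069 in psae1 and 0.051 in WT, than averages of different pairs, with 0.13 and 0.12. The most variable members in WT were AT3G09080, AT2G27290 and AT1G62250, with SDs of 0.25, 0.24 and 0.22, and the steadiest were AT4G00870, AT2G33180 and AT4G31530, with 0.03, 0.04 and 0.04.

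Features the choice did not use were few in the sources. The keyword classes placed 3 of the 10 named members by their names, with NdhS under photosynthesis and pigments and AT1G74470 and AT5G58330 under redox and antioxidants. The role of AT1G74470 in making chlorophyll was not used for its class. By probe number, 21.3% of the members had another of the brightest probes 1 number away, against 11.8% of the other bright probes and 13% of all 3439 probes. At distances of 2, 6, 12 and 24 numbers the shares were 25.5%, 25.5%, 21.3% and 17% of the members. They were 19.2%, 23.9%, 26.3% and 20.2% of the other bright probes, and 14.1%, 15.3%, 16.2% and 15.8% of all probes. Both bright groups lay above all probes at these distances, but the order between the 2 groups was not the same at every distance. The neighbours counted were themselves picked by WT brightness, which the choice did use. In gene order, 3 couples of members had 10 or fewer protein-coding genes between them. These were AT4G31470 with AT4G31530, AT4G39690 with AT4G39760, and AT3G26630 with CCL, with centred differences of 0.23 and −0.29, 0.49 and 0.16, and 0.11 and −0.43. Probes listing a member together with other genes existed for 5 members, and none of the 4 that could be tested was called. For AT4G31530, AT3G26630, AT5G42680 and AT1G35510 these were at 0.21, −0.16, 0.0010 and 0.028. The members' own probes were at −0.29, 0.11, 0.20 and 0.059. The probe that could not be tested, listing AT2G37510, had a mean of 0 in both genotypes.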

How the data were processed

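Total RNA of 6 psae1 and 6 WT samples was measured on 1 array design. The values are intensity on a linear scale as deposited by the authors; how they corrected background and scaled the columns is not given in the sources used here, and the column means lie near 1. Gene names came from the platform annotation and the RefSeq gene table. No sequences were analysed.

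An intensity of 0 was treated as missing, log2 values were centred on each column's median, and probes with at least 3 values in each genotype were fitted with limma 3.58.1 in R 4.3.3 (lmFit, eBayes, all 12 samples, no covariate, two-sided). Tables were made with Python 3.11.15. The fit was tested on simulated data, but the outcome is not given here and no result above rests on it. No per-sample column was left unused. The number of arrays limits the precision.

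Same-numbered samples of psae1 and WT deviated together, with correlations of 0.23 to 0.42 over 3257 probes. The replicate block takes the numbers to pair the samples, while the main fit on 12 samples has no block. That pairing comes from the data and not from the labels. Within a genotype numbers 1 and 2, 3 and 4, and 5 and 6 correlated at 0.33 to 0.61, and the averaged test uses these. SEs were wider in averages than with 12 samples, at 0.106 against 0.059 for CUTA and 0.124 against 0.077 for AT4G18180. Alternatives were other scalings, blocks, array weights, variance settings, limits of brightness and omissions of samples.

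The members, lists and tests were chosen with earlier results of these data known. Genes were named when among the 10 brightest, past the threshold, at the lower edge, brightest in a keyword class, or among the 3 most or least variable in WT. The gene chr31, the other named genes and the genes not overlapping as deposited were added after their values were seen.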

Additional observations from a re-analysis of the deposited data

Results flagged for a closer look

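Among 96 sets of 6 values, made of 47 members and the summed shares in each genotype, 2 held a sample far from the other 5. Chance gives about 1 in 20 such sets. AT4G31470 in sample psae1 2 had a centred log2 intensity of 2.518, above the other psae1 samples at 2.404 to 2.434. Without that sample its higher call was lost (limma adjusted p = 0.056, difference 0.21). AT4G00870 in sample WT 6 had a centred log2 intensity of 1.565, below the other WT samples at 1.624 to 1.653.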

How the results depend on the processing

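With columns as deposited, 3 members were called higher and 15 lower (limma, Benjamini-Hochberg), and the median difference reversed to −0.13. Quantile normalization gave 0 higher (4 at an unadjusted p under 0.05), 9 lower and −0.077, and cyclic loess normalization 2, 11 and −0.056. Scaling to the mean intensity, chosen after seeing the data as were the averages under it and under cyclic loess, gave 5, 12 and −0.089. In averages of paired numbers 2 were higher and 1 lower with centring, 5 and 2 with a replicate block, 0 higher after quantile or cyclic loess normalization (0 and 1 at an unadjusted p under 0.05), and 1 higher as deposited or scaled to the mean, with the medians as with 12 samples. A random block for paired numbers gave 6 and 1. The replicate block on 12 samples gave 19 and 5, with chr31 newly called, and changed no other named call. For these reversals the cause was not tested.

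Named genes reversed at the same value with 12 samples and in averages. As deposited these were NdhS at −0.083, AT4G39760 at −0.089, AT3G09080 at −0.090, AT4G31470 at −0.017, AT4G00870 at −0.14, AT5G42680 at −0.044 and AT3G19810 at −0.19. After quantile normalization they were AT4G17070 at −0.013, NdhS at −0.15, AT4G39760 at −0.11, AT3G09080 at −0.089, AT4G31470 at −0.019, AT4G00870 at −0.031 and AT3G19810 at −0.077. After cyclic loess normalization they were NdhS at −0.16, AT4G39760 at −0.15, AT3G09080 at −0.12, AT4G31470 at −0.0037, AT4G00870 at −0.045 and AT3G19810 at −0.056. Scaled to the mean intensity they were NdhS at −0.037, AT4G39760 at −0.043, AT3G09080 at −0.045, AT4G00870 at −0.091 and AT3G19810 at −0.14.

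Leaving out 1 sample at a time gave 12 to 17 higher calls, 4 to 5 lower calls and medians of 0.078 to 0.169, the highest without psae1 2, and AT2G27290 ranged from −0.097 to 0.051. Without numbers 1 and 2 there were 10 higher calls (all probes 6.9%, against 11.9% with all samples), a median of 0.18 and AT2G27290 at 0.020, and without numbers 3 and 4 also 10 higher calls (all probes 9.65%). Without numbers 5 and 6 AT2G27290 was at 0.0056, AT3G19810 at −0.11 and ATSPS4F at 0.051. Array weights put AT2G27290 at 0.022 and AT3G19810 at −0.039. The brightest 5% of probes gave 19 members, of which 10 were higher and 2 lower, with a median of 0.16 and 19 again bright in psae1. The brightest 20% gave 111 members, 23 higher, 15 lower, a median of 0.059 and 89 again bright in psae1. Ranking by psae1 gave 47 members with 21 higher, 3 lower and a median of 0.20. For these 3 choices of members the fit is unchanged, with 11.9% of all probes higher and 10.9% lower. The trend and robust variance, a fit to the brighter probes alone and 0 set to the lowest value kept both counts within 1.5 times.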
